A study of Mus musculus with 2 samples.

Results

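Autophagy is the route by which cells enclose cytoplasm, organelles or protein aggregates in a double membrane and deliver them to the lysosome. The 10 genes described here, chosen by symbol with earlier results of these data known, encode the ubiquitin-like Atg8 proteins (Map1lc3a, Map1lc3b, Gabarap, Gabarapl1 and Gabarapl2), the cargo receptor p62 (Sqstm1) and 4 core factors of autophagosome formation (Ulk1, Becn1, Atg5 and Atg7). All probe sets that the platform annotation assigns to 1 of these symbols alone were taken, which gave 27 of 34945 such probe sets and 10 of 18193 genes. No probe set annotated with several symbols held a member (0). The expression of the 10 genes was compared between the mouse rectal carcinoma line CMT-93 and CMT-93-PM1, a culture grown from lung tumours that formed after CMT-93 cells entered the tail vein of female C57BL/6 mice, 6 weeks old at injection and sampled 8 weeks later. Parental CMT-93 cells were profiled on 1 array and lung-recovered CMT-93-PM1 cells on 1 array, each from 6 µg of total RNA. The sources used here do not give whether CMT-93-PM1 came from 1 tumour or from pooled tumours.

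In the autophagy pathway, the ULK1 kinase starts the process, and a lipid kinase complex that contains Beclin 1 then marks the site where the membrane grows. ATG7 is the activating enzyme for the ATG12 and Atg8 systems, and ATG5 is joined to ATG12 in the complex that attaches Atg8 proteins to phosphatidylethanolamine. The lipid-bound Atg8 proteins of the LC3 branch (Map1lc3a, Map1lc3b) and the GABARAP branch (Gabarap, Gabarapl1, Gabarapl2) sit on the autophagosome and bind cargo receptors such as p62, which is itself degraded with its cargo. Transcript levels do not measure the flux through this pathway.

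With 1 array per line there is no replicate, no test and no p-value, and differences between the cultures cannot be told apart from effects of culture, labelling or hybridization. Values are log2 signals, and log2 ratios are lung-recovered minus parental. A probe set was taken as measured when it exceeded the array's 40th percentile, the floor, on at least 1 array, which was 4.69 log2 for the parental line and 4.59 for the lung-recovered line. The only spread in these data is that between probe sets of a gene. The SD of the log2 ratio between them had a median of 0.17 and a 90th percentile of 0.49 over 5782 genes. The arrays had median signals of 5.36 (parental) and 5.26 log2 (lung-recovered).

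As a check of the labelled cell type, 7 of 10 intestinal epithelial markers were above the floor on each array, with sums of 22689 and 29989 on the linear scale. The bright ones were Krt19 (12.72 log2 parental, 12.98 lung-recovered), Cdh1, Krt8, Krt18 and Epcam. These are not confined to intestine, so the sums do not tell intestinal from other epithelium. Cdx2 (5.24 and 5.08) and Cdh17 (5.77 and 6.77, 2-fold higher) were dim, and Krt20, Vil1 and Cdx1 were at the floor on both. Of 10 lung epithelial markers, 6 exceeded the floor in the parental line and 5 in the lung-recovered line, the brightest being Abca3 (7.99 and 8.73), and Sftpa1, Scgb1a1, Scgb3a2 and Nkx2-1 were at the floor on both. This list summed to 606 and 694. Of 10 fibroblast and smooth muscle markers, 5 were above the floor on each array, with sums of 362 and 297, the brightest being Des (6.78 and 6.23), and Col1a1, Col3a1, Pdgfra, Lum and Thy1 were at the floor on both. Of 8 endothelial markers, 2 were above the floor on each array, Tek and Kdr in the parental line and Cdh5 and Kdr in the lung-recovered line, with sums of 520 and 755. Tek read 8.57 and 3.43 and was the brightest in the parental line, Cdh5 read 4.21 and 9.30 and was the brightest in the lung-recovered line, and Pecam1, Emcn, Vwf, Cldn5 and Tie1 were at the floor on both. Of 8 leukocyte markers, 5 were above the floor on each array, with sums of 1856 and 1027. Cd14 (10.63 and 9.14) was the brightest, and Ptprc, Adgre1 and Itgam were at the floor on both. Past 2-fold in these 4 lists of other cell types, and named after their values were seen, were Cdh5 (at least 24.4-fold higher, with a ratio of 0.83 by its other measured probe set), Tek (at least 15.8-fold lower), Cd68 (5.23 and 7.05, 3.53-fold higher), Csf1r (6.42 and 7.54, 2.17-fold higher, with ratios of 0.02 and 0.78 by its others) and Cd14 (2.81-fold lower). The part of other cell types in the differences below was not tested.

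Among the 10 genes, Map1lc3a differed most, being 8.11-fold higher in the lung-recovered line by its brighter probe set and 2.99-fold by the other. Gabarapl1, Map1lc3b and Sqstm1 were 1.87-fold, 1.75-fold and 1.55-fold higher, and their other measured probe sets gave like values. The remaining Atg8 genes and the core factors lay closer to 0, and Becn1 was 1.26-fold lower. By representative probe set, the one with the highest mean signal, 1 of the 10 genes was at least 2-fold higher and 0 were at least 2-fold lower. Over all 13332 measured genes, 4.42% were higher by 2-fold or more and 2.55% lower by as much. At 1.5-fold, 5 of the 10 were higher and 0 lower, where 11.5% of all measured genes were higher and 6.95% lower. Of these 5, Map1lc3a, Map1lc3b, Gabarapl1 and Sqstm1 passed 1.5-fold with every measured probe set, and Atg7 with 1 of 3. The share of all genes that pass with every measured probe set was not computed. The median log2 ratio of the 10 genes was 0.46, against 0.00 over all measured genes, and 0.23 when each gene was represented by the median of its probe sets.

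**Figure D1:**
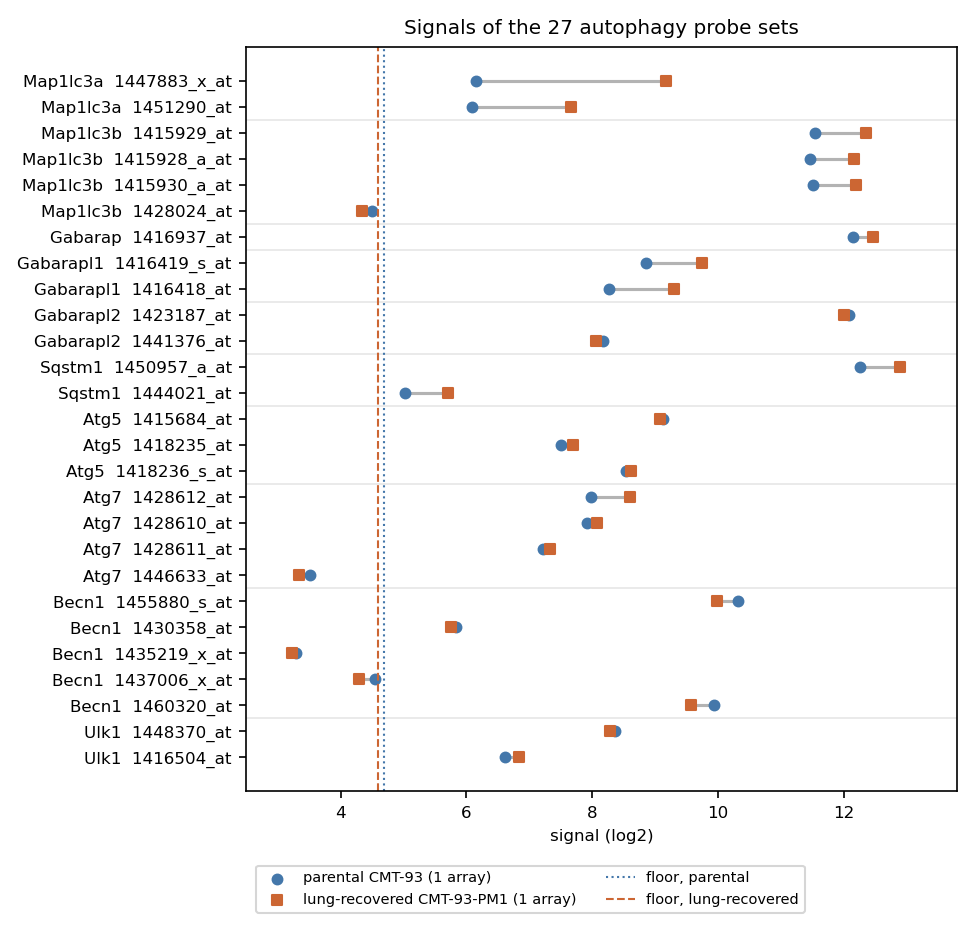
Log2 signal of each of the 27 probe sets of the 10 autophagy genes on the parental array (circles) and the lung-recovered array (squares), with the floor of each array as a vertical line. The longest lines join the signals of the 2 Map1lc3a probe sets (6.15 to 9.17 and 6.09 to 7.67), and 4 probe sets lie below both floors.

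For 8 of the 10 genes the RefSeq promoter table of GRCm38.p6 held a start site, and the 250 bases before it are shown for 4 of them. Map1lc3a and Becn1 had no entry. Map1lc3b, Gabarapl1 and Sqstm1 are shown because they are, beside Map1lc3a, the members at least 1.5-fold higher by every measured probe set. Gabarapl2 is shown as the Atg8 gene nearest to 0. Capitals mark the GC box GGGCGG read on either strand, and each sequence runs 5′ to 3′ on the strand of its gene.
Map1lc3b, chr8:121590188-121590437, plus strand: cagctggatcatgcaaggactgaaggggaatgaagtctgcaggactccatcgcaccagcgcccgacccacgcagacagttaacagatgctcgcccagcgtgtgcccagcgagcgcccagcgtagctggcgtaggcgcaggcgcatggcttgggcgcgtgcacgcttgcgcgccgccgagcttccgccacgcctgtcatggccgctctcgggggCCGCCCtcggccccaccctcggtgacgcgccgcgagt
Gabarapl1, chr6:129532942-129533191, plus strand: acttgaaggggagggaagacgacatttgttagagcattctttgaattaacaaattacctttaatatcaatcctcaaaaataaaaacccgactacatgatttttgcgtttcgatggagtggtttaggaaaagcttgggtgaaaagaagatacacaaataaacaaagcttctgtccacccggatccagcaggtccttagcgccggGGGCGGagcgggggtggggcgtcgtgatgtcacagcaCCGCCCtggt
Sqstm1, chr11:50210821-50211070, minus strand: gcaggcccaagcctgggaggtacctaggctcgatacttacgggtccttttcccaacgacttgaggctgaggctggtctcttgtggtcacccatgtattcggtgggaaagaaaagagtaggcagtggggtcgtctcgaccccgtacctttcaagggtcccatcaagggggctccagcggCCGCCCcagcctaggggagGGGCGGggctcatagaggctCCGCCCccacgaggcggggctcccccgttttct
Gabarapl2, chr8:111940453-111940702, plus strand: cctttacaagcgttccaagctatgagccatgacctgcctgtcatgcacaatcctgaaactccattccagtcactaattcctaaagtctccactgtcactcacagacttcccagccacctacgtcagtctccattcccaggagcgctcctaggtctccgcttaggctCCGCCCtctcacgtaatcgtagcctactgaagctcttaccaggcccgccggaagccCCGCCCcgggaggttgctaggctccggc

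GC boxes numbered 1 in the window of Map1lc3b, 2 in that of Gabarapl1, 3 in that of Sqstm1 and 2 in that of Gabarapl2. In the windows not shown they numbered 5 in Ulk1, 1 in Atg5 and 0 in Gabarap and Atg7. Of the 8 windows, 6 held GGGCGG, as did 32.7% of the 32851 windows of this length in the table. The letters CACGTG, the core of the E-box and of the CLEAR element bound by TFEB, occurred in 2 of the 8 windows and in 6.02% of all windows. They began at base -14 from the start site in Atg5 and at base -132 in Atg7. The longer CLEAR letters TCACGTGA, which overlap CACGTG, occurred in 0 of the 8 and in 0.785% of all windows. The Map1lc3b window held 30 CG dinucleotides, more than 94.1% of all windows, whereas Gabarapl1 and Gabarapl2 had 12 each and Sqstm1 had 14. These matches describe the windows, and binding was not measured.

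Map1lc3a encodes LC3A, a protein of the LC3 branch, which takes its name from a light chain of microtubule-associated proteins. Its probe set 1447883_x_at read 6.15 log2 in the parental line and 9.17 in the lung-recovered line, a log2 ratio of 3.02 that only 0.18% of measured genes reached or passed upward. Its other probe set, 1451290_at, read 6.09 and 7.67, a log2 ratio of 1.58 that 1.45% of measured genes reached or passed. Both were above the floor on both arrays and both were past 2-fold in the same direction. They lay in bins 6 and 5 of 10 equal bins of signal, where ratios had SDs of 0.64 and 0.72. The 2 probe sets differed in size, with an SD of 1.02 between their ratios. They were read on the same arrays, so their common direction is not a replicate of the difference between the lines. The suffix _x_at marks probe sets in which some probes can match other sequences, and the brighter probe set is of this kind, so the 2.99-fold of the other is the value without such probes.

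Map1lc3b encodes LC3B, the Atg8 protein most often used as a marker of autophagosomes. Its probe set 1415929_at read 11.54 log2 in the parental and 12.35 in the lung-recovered line, a ratio of 0.81. The probe set 1415928_a_at read 11.46 and 12.16, a ratio of 0.70. The probe set 1415930_a_at read 11.51 and 12.19, a ratio of 0.68. The annotation gives the 3 the same sequence accession, so they share their target, and the SD of their ratios was 0.07. A further probe set, 1428024_at, read 4.50 and 4.34 and was at the floor on both arrays. The measured Map1lc3b probe sets lay in the brightest of 10 equal bins of signal, where ratios had an SD of 0.41 and 7.48% of probe sets were at least 1.5-fold higher.

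In the GABARAP branch, whose proteins act in later steps of autophagosome maturation and in membrane traffic, the 3 genes differed from each other. The Gabarapl1 probe set 1416419_s_at read 8.85 log2 in the parental and 9.75 in the lung-recovered line, a ratio of 0.90. Its probe set 1416418_at read 8.27 and 9.30, a ratio of 1.03 or 2.04-fold. Gabarapl1 thus lay at the 2-fold limit, inside it by its representative probe set and past it by the other, with an SD of 0.09 between them. The annotation gives both the same source sequence, so they share their target. The suffix _s_at marks probes shared by several transcripts, and the probe set without it gave the larger ratio.

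Gabarap, with a single probe set (1416937_at), read 12.15 log2 in the parental and 12.46 in the lung-recovered line, 1.24-fold higher, and 23.8% of measured genes had a ratio as high or higher. Gabarapl2 encodes the protein also known as GATE-16. It read 12.09 and 12.01 by 1423187_at and 8.17 and 8.06 by 1441376_at. Its ratios of -0.08 and -0.11 lay within the typical spread between probe sets, and that of its representative was 0.02 after scaling to equal medians. Of the 5 Atg8 genes, 4 had ratios above 0 and 1 below, with a median of 0.81, while the other 5 members had a median of -0.05. Over all 13332 measured genes, 6565 had ratios above 0 and 6499 below. The difference between the Atg8 genes and the other members was not tested.

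By probe sets, 3 of the 23 measured were at least 2-fold higher, both of Map1lc3a and 1 of Gabarapl1, and 0 were at least 2-fold lower. Among all 24067 measured probe sets, 4.04% were higher by 2-fold or more and 2.78% lower by as much. Probe sets of 1 gene share their transcript and are not replicates.

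Sqstm1 encodes p62, which links ubiquitinated cargo to Atg8 proteins and is also a known target gene of the oxidative stress factor NRF2. It read 12.26 log2 in the parental and 12.89 in the lung-recovered line by 1450957_a_at, a ratio of 0.63. It read 5.02 and 5.71 by the dim probe set 1444021_at, a ratio of 0.69. The probe sets, which derive from different sequences, were 1.55-fold and 1.61-fold higher, with an SD of 0.04 between their ratios. The brighter one lay in the same top bin of signal as Map1lc3b.

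The core factors showed smaller or less uniform differences. Ulk1, the kinase that starts autophagosome formation, read 8.36 log2 in the parental and 8.29 in the lung-recovered line by 1448370_at and 6.61 and 6.84 by 1416504_at, so its ratios of -0.07 and 0.23 had no common direction. Becn1, the scaffold of the class III lipid kinase, read 10.32 and 9.99 by 1455880_s_at, a ratio of -0.33. It read 9.93 and 9.57 by 1460320_at, a ratio of -0.36, and 5.83 and 5.75 by 1430358_at, a ratio of -0.08. Becn1 was the member with the lowest ratio, and 17.6% of measured genes had a ratio as low as that of its representative or lower. Its probe sets 1435219_x_at (3.29 and 3.22) and 1437006_x_at (4.55 and 4.29) were at the floor on both arrays.

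Atg5, whose protein forms part of the enzyme complex that lipidates Atg8 proteins, read 9.12 log2 in the parental and 9.07 in the lung-recovered line by 1415684_at. It read 7.51 and 7.69 by 1418235_at and 8.54 and 8.62 by 1418236_s_at, so the ratios ran from -0.05 to 0.18. Atg7, the activating enzyme, read 7.98 and 8.60 by 1428612_at, a ratio of 0.62. Its probe sets 1428610_at (7.92 and 8.08) and 1428611_at (7.22 and 7.33) gave ratios of 0.16 and 0.11, and the median of the 3 was 0.16. The 1.54-fold of the representative therefore rested on 1 probe set, and 1446633_at (3.51 and 3.34) was at the floor on both arrays. Over the 10 genes, 6 had every measured probe set above 0, Gabarap among them by its single probe set. Becn1 and Gabarapl2 had every one below 0, and Atg5 and Ulk1 had both signs. The share of all genes by this rule was not computed, so nothing is read from these counts.

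**Figure D2:**
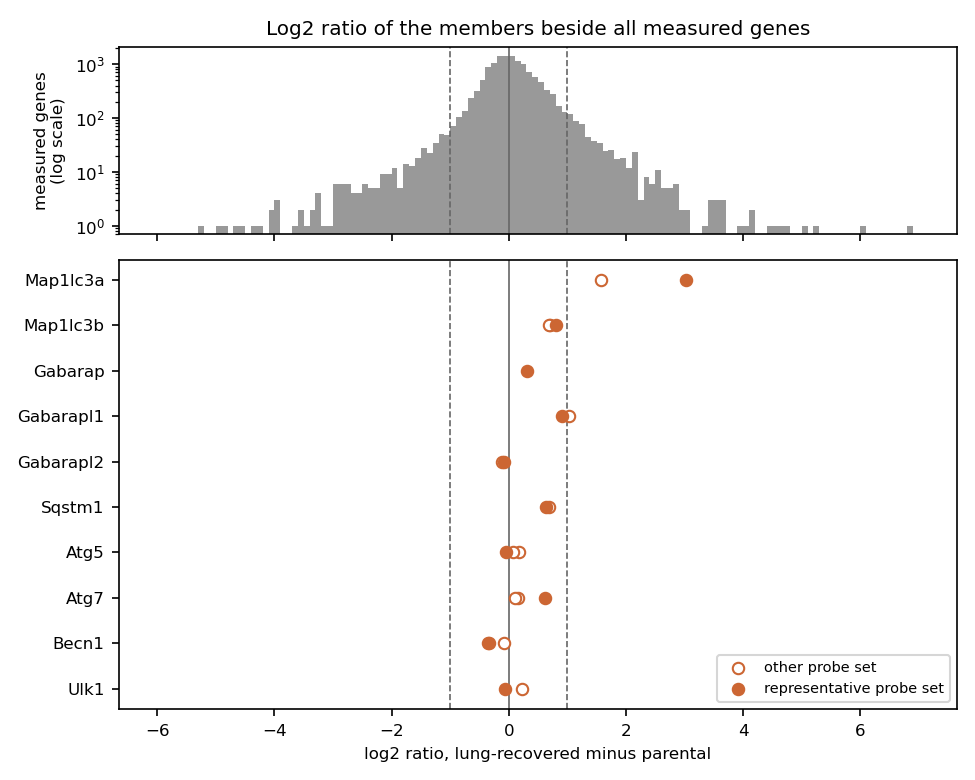
Upper panel, the number of measured genes (log scale) by log2 ratio, lung-recovered minus parental; lower panel, the log2 ratio of every measured probe set of the 10 autophagy genes, with the representative probe set filled and dashed lines at 2-fold. Both Map1lc3a probe sets (1.58 and 3.02) and 1 Gabarapl1 probe set (1.03) lie beyond the upper line, and none lies beyond the lower line (0).

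Of 92 further autophagy genes in 9 lists by pathway step, 91 were measured. Of these, 3 were higher by 2-fold or more and 4 lower by as much in the lung-recovered line, where 4.42% and 2.55% of all measured genes were. The median log2 ratio of the 91 was 0.11, with 51 above 0 and 38 below. Over all 13332 measured genes, 6565 ratios were above 0 and 6499 below. These all-gene counts are the background for the sign counts of each list below. At 1.5-fold, 13 of the 91 were higher and 8 lower, against 11.5% and 6.95% of all measured genes. As shares of the 91, the 2-fold counts were 3.3% and 4.4%, and with so few genes past the limit no difference from all genes is read from them.

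In the initiation machinery, none of the 4 partners of ULK1 passed 2-fold (0), and their ratios ran from -0.20 for Rb1cc1, the scaffold FIP200 (0.21 by its other measured probe set), to 0.47 for Atg101, a subunit that binds ATG13. Of the 7 further genes of the class III lipid kinase complexes, 5 had ratios above 0 and 2 below, with a median of 0.38 and 0 past 2-fold. They ran from -0.27 for Pik3c3, the catalytic subunit (7.59 log2 parental, 7.32 lung-recovered), to 0.54 for Uvrag, a Beclin 1 partner (9.45 and 9.99). The 10 genes that supply membrane ran from -0.70 for the lipid scramblase gene Atg9b (8.96 and 8.26, with -0.26 by its dimmer probe set) to 0.77 for the lipid transfer protein gene Atg2b (7.50 and 8.27, with 0.63 by another), and 0 passed 2-fold.

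Among 5 conjugation genes, Atg16l2, a relative of the ATG5 partner ATG16L1, was 2-fold higher at 6.44 log2 in the parental and 7.44 in the lung-recovered line, which is on the limit, while its other probe set lay near the floor (4.17 and 4.65). Atg16l1 itself was the lowest of this list, at 8.05 and 7.70. The ATG4 proteases cut Atg8 proteins before conjugation and free them from membranes afterwards. Their ratios ran from -0.75 for Atg4d (7.98 and 7.23) to 0.17 for Atg4a (8.33 and 8.50, but -0.22 by a dimmer probe set), and 0 of 4 passed 2-fold.

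Of 17 measured cargo receptors other than p62, 1 was higher by 2-fold or more and 1 lower by as much, or 5.88% each way beside 4.42% and 2.55% of all measured genes. Their median was 0.29, with 11 ratios above 0. Stbd1, a receptor that binds glycogen and GABARAPL1, read 5.93 log2 in the parental and 7.55 in the lung-recovered line, 3.07-fold higher by its single probe set. Bnip3, a mitochondrial receptor whose gene is induced by hypoxia, read 10.97 and 9.85, 2.17-fold lower by its single probe set.

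Of 16 genes for fusion with lysosomes, 12 had ratios above 0 and 4 below, with a median of 0.23 and 0 past 2-fold. Of all 13332 measured genes, 6565 lay above 0 and 6499 below, and the difference from them was not tested. Tecpr1, a tether that binds ATG5, was the highest (8.93 log2 parental, 9.64 lung-recovered, ratio 0.71). Lamp2, a lysosomal membrane protein with several isoforms, was the lowest by its representative (11.47 and 11.01, ratio -0.46), while its other probe sets ran from -0.49 to 0.27. The MAP1 proteins, the microtubule partners of the LC3 light chains, ran from -0.09 for Map1a (5.94 and 5.85) to 0.37 for Map1s (8.41 and 8.78), with 0 of 3 past 2-fold.

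Of 25 measured upstream regulators, 1 was higher by 2-fold or more and 3 lower by as much, or 4% and 12% beside 4.42% and 2.55% of all measured genes, with a median of -0.07. Among these 3, Foxo1 lay on the 2-fold limit. Bcl2, whose protein binds and restrains Beclin 1 besides blocking apoptosis, read 7.40 log2 in the parental and 8.93 in the lung-recovered line, 2.89-fold higher. Other Bcl2 probe sets were 2.71-fold, 1.4-fold and 1.28-fold higher. Ddit4, which restrains mTORC1, read 10.92 and 9.71 and was 2.31-fold lower by its single probe set. Foxo1, a transcription factor known to act on autophagy genes, read 9.61 and 8.61 and was 2-fold lower, with its other probe sets at 2.3-fold, 1.8-fold and 1.06-fold lower. Mitf, a relative of TFEB, read 6.42 and 4.36 and was at least 3.56-fold lower, since it was at the floor on the lung-recovered array. Tfeb itself, the main activator of lysosomal and autophagy genes, read 8.05 and 7.98, and Tfe3 read 8.03 and 8.15. Both are named beside Mitf as the other listed members of that family and were chosen after their values were seen.

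**Figure D3:**
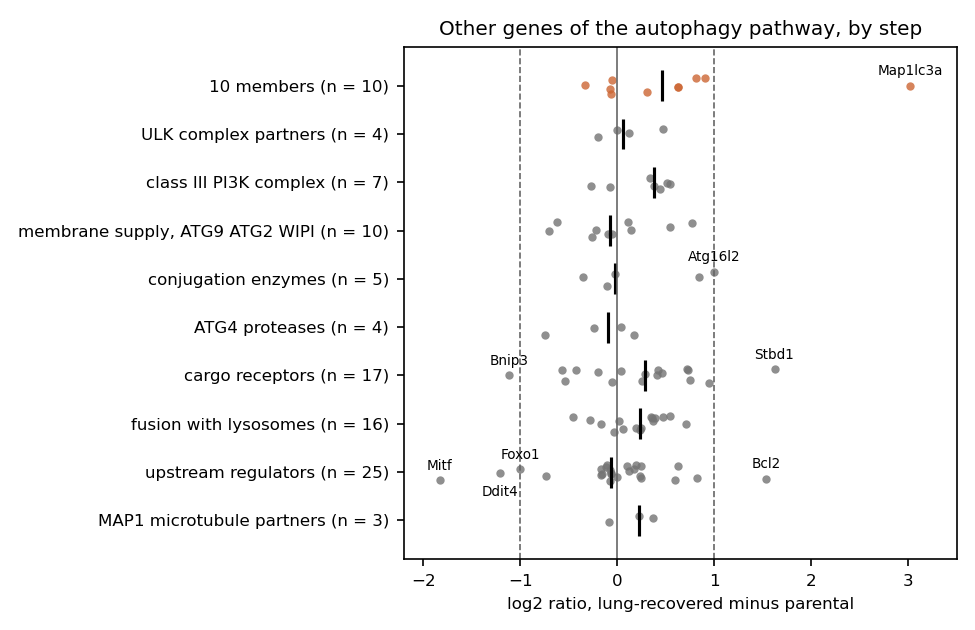
Log2 ratio, lung-recovered minus parental, of the 10 members and of 91 further autophagy genes in 9 lists, 1 point per gene by representative probe set, with a black bar at each list's median and dashed lines at 2-fold; vertical scatter within a list has no meaning. Map1lc3a (3.02) lies farthest from 0, and 7 other genes, from Mitf (-1.83, a bound) to Stbd1 (1.62), lie on or beyond a dashed line.

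To see whether the differences extended along the chromosome, the 5 annotated genes on each side of a member, in the map order of GRCm38.p6, were read. Around Map1lc3a on chromosome 2, 8 of these genes were measured, with ratios from -0.53 to 0.39, a median of 0.02 and 0 past 2-fold. The adjacent genes Dynlrb1 (10.89 log2 parental, 11.07 lung-recovered) and Pigu had ratios of 0.18 and 0.07. The lowest was Trp53inp2, whose protein binds Atg8 proteins and takes part in autophagy, at 10.22 and 9.69. The difference of Map1lc3a was thus not shared by the measured genes beside it.

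Around Map1lc3b on chromosome 8, the 8 measured neighbours had a median ratio of 0.18 and ran from -0.24 to 0.78. Fbxo31 on one side (7.73 log2 parental, 8.51 lung-recovered) and Klhdc4 farther on the other (8.20 and 8.94) had ratios of 0.78 and 0.74, close to the 0.81 of Map1lc3b. Zcchc14, adjacent on the other side (8.57 and 9.11), and Mthfsd had ratios of 0.54 and 0.40. The dim genes Foxl1, 1700018B08Rik and Jph3 had ratios of -0.24, -0.21 and -0.12, and the bright Slc7a5 had a ratio of -0.03. Around Sqstm1 on chromosome 11, the 9 measured neighbours had a median of 0.25 and ran from -0.28 to 1.21. The adjacent Mrnip (6.12 and 7.33) was 2.31-fold higher, more than Sqstm1, and Mgat4b, adjacent on the other side, had a ratio of 0.57. Farther out, Tbc1d9b and Ltc4s had ratios of 0.67 and 0.82, and Mapk9 and Maml1 of 0.13 and 0.25. Rnf130, Rasgef1c and Canx were lower, with ratios of -0.28, -0.17 and -0.13. Gabarapl1 on chromosome 6 lies beside Clec and Klr receptor genes of myeloid and lymphoid cells, and of its 10 neighbours all but Tmem52b (4.85 and 4.77) were at the floor on both arrays. Beside the other 6 members, the neighbours past 2-fold were Dvl2, 1 of 9 measured near Gabarap (7.07 and 8.47), and Ttc28, 1 of 8 near Ulk1 (7.19 and 8.19), both higher. Over all measured genes, 4.42% were higher by 2-fold or more and 11.5% by 1.5-fold or more. No regional difference is read from Dvl2, Ttc28 or Mrnip alone. Whether the ratios of Map1lc3b and Sqstm1 are part of a regional difference was not tested.

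**Figure D4:**
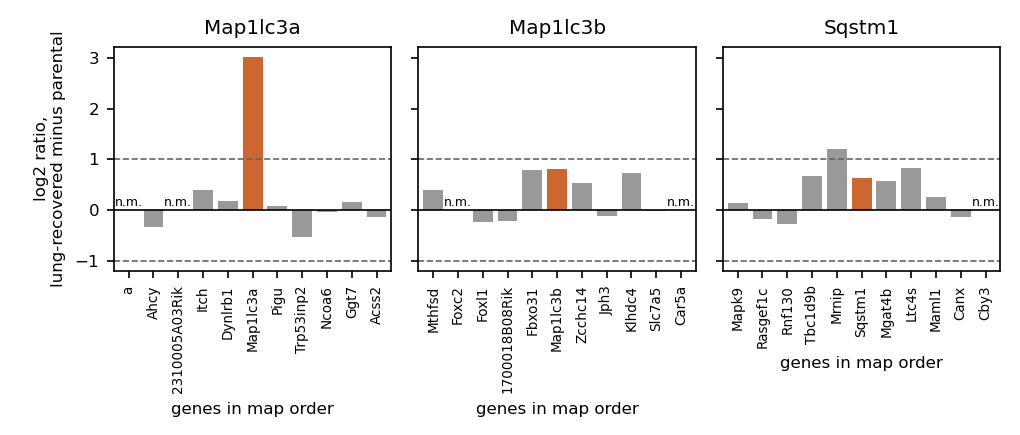
Log2 ratio, lung-recovered minus parental, of Map1lc3a, Map1lc3b and Sqstm1 (coloured bars) and of the 5 annotated genes on each side in map order (grey bars); dashed lines mark 2-fold and n.m. a gene not measured on either array. Map1lc3a (3.02) stands alone among its neighbours, whereas Map1lc3b (0.81) and Sqstm1 (0.63) have neighbours with ratios as large or nearly so (0.78 and 1.21).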

How the data were processed

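Total RNA of CMT-93 (parental) and CMT-93-PM1 (lung-recovered) cells was hybridized to 1 Affymetrix array each, per the labels' protocols. The authors deposited log2 signals for 45037 probe sets. The log base was taken from the values, MAS5 is named without a role in the submitters' processing notes, and the sources used here do not give the scaling between arrays. Values were used as deposited. The members and gene lists were chosen with earlier results of these data known.

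Of 35877 annotated probe sets, 34945 had 1 symbol, updated by Entrez identifier to GRCm38.p6, and 932 had several and were left out. Each gene was represented by its probe set of highest mean signal. Each array was floored at its 40th percentile, and a ratio to a floored value is a bound. Named pathway genes are those at least 2-fold apart and the highest and lowest of each list. Named markers are the brightest of each list, those at the floor and others named after their values were seen. Computation used Python 3.11.15 and pandas 2.3.3. The alternatives were 3 scalings, 3 floors, 2 rules for probe sets and a fold of 1.5.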

Additional observations from a re-analysis of the deposited data

How the results depend on the processing

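Map1lc3a, Map1lc3b, Gabarap, Gabarapl1, Sqstm1 and Atg7 kept ratios above 0, and Becn1 below 0, under all 8 alternatives of scaling, floor and probe set choice. Those of Gabarapl2, Atg5 and Ulk1 turned sign under some, within -0.16 to 0.08. A value was taken as moved when it shifted by more than 0.17, the median SD between probe sets. The Map1lc3a log2 ratio of 3.02 was 2.30 by the median over probe sets and 1.58 when probe sets with an _s, _x or _a suffix were left out, and ran up to 3.12 otherwise. That of Atg7 was 0.16 by the median over probe sets. The median over the 10 members was 0.23 by that rule. The number of members past 2-fold, 1 as reported, was 2 after scaling to equal medians and 2 without the suffixed probe sets, the second being Gabarapl1 in each, and 5 at a fold of 1.5. Scaling to equal medians moved the median of all measured genes from 0.00 to 0.10. The number of other pathway genes past 2-fold, 7 as reported, was 4 by the median over probe sets (1 higher, 3 lower) and 21 at a fold of 1.5. It was 4 higher and 3 lower after scaling to equal medians, and 2 higher and 4 lower after quantile normalization and after lowess, with Atg16l2 and Foxo1 on the limit as reported. Their median stayed between 0.04 and 0.21. No paired analysis was possible because each line has 1 array. Single arrays limit the precision of all values, and signal near the floor limits that of dim probe sets.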
